A study of Homo sapiens with 4 samples.

Results

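The miR-181 family of microRNAs (miRNAs) was followed in the small RNA of HCT116, a human cell line derived from a colorectal carcinoma. Its members here are 7 mature strands, chosen by name: the 4 guide strands hsa-miR-181a-5p, hsa-miR-181b-5p, hsa-miR-181c-5p and hsa-miR-181d-5p, the 3p strands hsa-miR-181a-3p and hsa-miR-181a-2-3p, each made from a single locus, and hsa-miR-181c-3p. Of these 7, 6 are among the 1644 miRNA names with counts, and all 6 had reads in every library. The guide hsa-miR-181a-5p was not analysed here. The cells were transfected with the empty pcDNA3 plasmid, with wild-type pri-miRNA plasmids, with mutant 1 pri-miRNA plasmids or with mutant 2 pri-miRNA plasmids, and 1 small RNA library was sequenced per condition. The plasmid sequences cover 12 pri-miRNAs (let-7d, mir-16-1, mir-30a, mir-30d, mir-128-1, mir-142, mir-182, mir-200b, mir-342, mir-513b, mir-576 and mir-885), and none of them is a miR-181 pri-miRNA, so all miR-181 reads were endogenous. All conditions are transient transfections of a single cell line, with 1 library each and no replicate.

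The empty vector, wild-type, mutant 1 and mutant 2 libraries held 14544516, 17364117, 19834361 and 17136599 miRNA reads. Of these, 92.0%, 70.5%, 70.7% and 88.3% were reads of untransfected miRNAs, those that no plasmid encodes. Levels are given as reads per 1000000 untransfected miRNA reads (RPM), since reads of the plasmid miRNAs take up a different part of each library. Without replicates there is no test between conditions: every interval is at 95% and covers counting error only, and the reads carry no molecular identifiers. Of 6 miRNAs of epithelial and intestinal cells, all had reads, with a summed level of 22990 to 25876 RPM. Their levels differed widely, from 10015 to 12684 RPM for miR-141-3p to 24.2 to 35.0 RPM for miR-215-5p. The intestinal miR-192-5p had 1791 to 3003 RPM and miR-194-5p had 31.8 to 34.4 RPM. Of 8 miRNAs that mark liver, muscle, neural or blood cells, 5 were analysed here. These were miR-122-5p (liver), miR-9-5p (neural), and miR-451a, miR-223-3p and miR-150-5p (blood), and no muscle marker was among them. The summed level of the 5 was 6.35 to 7.47 RPM, and miR-451a, of the red cell lineage, was at 1.42 to 2.71 RPM.

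A pri-miRNA is a hairpin transcript. DROSHA, in the Microprocessor complex, makes the productive cleavage near the base of the stem and so sets the 5p end of the 5p strand and the 3p end of the 3p strand, and DICER cuts near the loop and sets the other ends. One strand of the resulting duplex, the guide, is usually kept in Argonaute, where bases 2 to 8, the seed, pair with target mRNAs. Members of the miR-181 family share a guide seed, and miR-181a is known for setting the sensitivity of T cell receptor signalling in developing T cells.

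The family has 6 loci in GRCh38, in 3 clusters. MIR181A1 (chr1:198859044-198859153) and MIR181B1 (chr1:198858873-198858982) lie 61 bp apart on the minus strand, in intron 2 of the lncRNA gene MIR181A1HG. MIR181A2 (chr9:124692442-124692551) and MIR181B2 (chr9:124693710-124693798) lie 1158 bp apart on the plus strand, in intron 1 of the lncRNA gene MIR181A2HG and antisense to intron 2 of NR6A1, which encodes a nuclear receptor. MIR181C (chr19:13874699-13874808) and MIR181D (chr19:13874875-13875011) lie 66 bp apart on the plus strand, within the bounds of NANOS3 but outside its canonical transcript. Each guide of miR-181a and miR-181b is thus encoded at 2 loci, whereas all 3p strands and the guides of miR-181c and miR-181d matched the genome once.

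The guide strands are shown because they differ by few bases, by which reads are told apart. The mature sequences are from RefSeq (GRCh38.p14), 5′ to 3′, with the seed in capitals.
hsa-miR-181a-5p: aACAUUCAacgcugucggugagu
hsa-miR-181b-5p: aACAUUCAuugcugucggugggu
hsa-miR-181c-5p: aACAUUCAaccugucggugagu
hsa-miR-181d-5p: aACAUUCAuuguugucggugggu
All 4 guides have the seed ACAUUCA. The miR-181b and miR-181d guides differed at 1 position (12, counted from 1 at the 5′ end), those of miR-181a and miR-181b at 3 positions (9, 10 and 21) and those of miR-181a and miR-181d at 4 (9, 10, 12 and 21). The miR-181c guide is the miR-181a guide with 1 base removed, at position 11. The same seed is annotated in RefSeq for 1 further miRNA, hsa-miR-4262, which was not analysed here.

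The 3p strands tell the loci apart, and the set below is shown because reads of miR-181c-3p did not begin where the annotation does. The first 3 are annotated sequences and the last is the most frequent isoform of miR-181c-3p in the libraries, with bases 2 to 8 in capitals.
hsa-miR-181a-3p (MIR181A1): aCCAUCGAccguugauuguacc
hsa-miR-181a-2-3p (MIR181A2): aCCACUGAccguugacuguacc
hsa-miR-181c-3p, annotated (MIR181C): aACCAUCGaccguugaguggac
hsa-miR-181c-3p, most frequent isoform: aCCAUCGAccguugagugga
The 2 miR-181a 3p strands differ at 3 positions (5, 6 and 16), 2 of them within the seed. The most frequent isoform of miR-181c-3p has the seed of miR-181a-3p, CCAUCGA, and the same first 15 bases.

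Together the 6 members with reads made up 0.156% of the untransfected miRNA reads with the empty vector, 0.152% with the wild-type plasmids, 0.132% with mutant 1 and 0.151% with mutant 2. In the order of the levels miR-181c-5p came first, with 518, 479, 419 and 491 RPM in the empty vector, wild-type, mutant 1 and mutant 2 libraries. It ranked between 95 and 102 among 1607 untransfected miRNAs, and in the empty vector library it stood between miR-148a-5p (6985 reads) and miR-151a-5p (6422 reads) with 6928 reads. The 3p strand of MIR181A1, miR-181a-3p, followed with 360, 353, 301 and 358 RPM, and miR-181a-2-3p from MIR181A2 with 217, 215, 177 and 203. So, among the 6 members with reads, the second and the third most abundant were 3p strands of the miR-181a loci. The guide miR-181a-5p was not analysed and has no place in this order.

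The lower 3 members lay close together. The guide miR-181d-5p had 180, 181, 152 and 169 RPM, miR-181c-3p had 162, 150, 116 and 141, and miR-181b-5p had 125, 139, 154 and 150, in the same order of libraries. With the empty vector these 3 were ordered d-5p, c-3p and b-5p, whereas in the mutant 1 library miR-181b-5p (154 RPM, interval 148 to 161) and miR-181d-5p (152, interval 145 to 158) had overlapping intervals and both lay above miR-181c-3p (116, interval 110 to 121). This place of miR-181b-5p rests on adding all its 3p ends, described with its paired counts. The first 3 places were the same in all 4 libraries. Reads of different strands were compared as they were counted, and a share of reads is not a share of molecules.

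Within a library no scaling is needed, so the make-up of the guide reads was compared as shares. Over the guides of miR-181b, miR-181c and miR-181d, miR-181c-5p took 62.9% (interval 62.0 to 63.8%) of 11008 reads with the empty vector, 60.0% (59.0 to 61.0%) of 9775 with the wild-type plasmids, 57.8% (56.8 to 58.8%) of 10165 with mutant 1 and 60.6% (59.7 to 61.5%) of 12251 with mutant 2. The share of miR-181b-5p was 15.1% (14.5 to 15.8%), 17.4% (16.6 to 18.1%), 21.2% (20.5 to 22.1%) and 18.5% (17.8 to 19.2%) in the same order. That of miR-181d-5p stayed between 20.9 and 22.6%. Thus miR-181c-5p was the main guide counted in every library, and its share was highest with the empty vector and lowest in the mutant 1 library, where that of miR-181b-5p was highest. The miR-181b-5p reads lie within sequence shared by its 2 loci, whereas the other guides counted have 1 locus each. These are therefore shares of the counts and not of the output of the guides, and the intervals do not cover this. How far libraries of the same condition would differ is not known from these data.

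**Figure D1:**
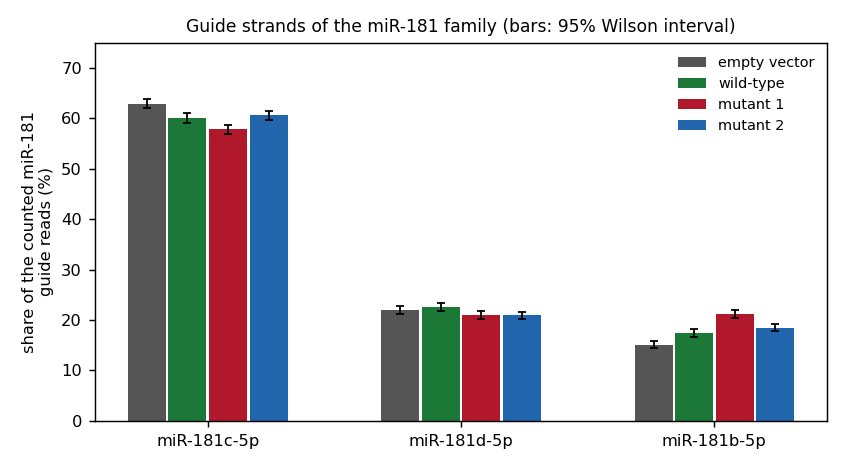
Share of the counted miR-181 guide reads (%) held by each guide strand, with 1 bar per library and 95% Wilson intervals. The share of miR-181c-5p lay between 57.8 and 62.9% and that of miR-181b-5p between 15.1 and 21.2%, and miR-181a-5p is not part of the total.

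The counts of miR-181b-5p have a feature that its levels and shares carry with them. The reads came in pairs of nearly equal counts at adjacent 3p ends. With the annotated 5p start, 770 reads ended 1 nt and 761 ended 2 nt upstream of the annotated 3p end with the empty vector, and the pairs were 799 and 790 with the wild-type plasmids, 1014 and 989 with mutant 1 and 1065 and 1053 with mutant 2. Reads that start 1 nt upstream gave 25 and 25, 18 and 18, 14 and 14, and 16 and 16 reads. These 2 ends held between 98.7 and 99.5% of the miR-181b-5p reads. Among miRNAs whose 2 most frequent 3p ends were adjacent and held at least 20 reads each with the empty vector, those counts were within 5% of each other in 6 of 12 miRNAs with 2 or more loci and in 9 of 235 miRNAs with 1 locus. Whether a read was counted more than once was not tested. With the ends 2 nt short left out, a choice made after the data were seen, the level of miR-181b-5p was 62.9, 70.1, 78.9 and 75.7 RPM, the lowest of the 6 members in every library. Its share of the guide reads was then 8.27, 9.60, 12.1 and 10.3%, and that of miR-181c-5p was 68.0, 65.7, 64.5 and 66.7%.

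The sequence shared by the loci bears on which reads can be placed. Reads of 18 to 26 nt with unambiguous alignments were kept by the authors. The stretch that is identical at MIR181A1 and MIR181A2 around miR-181a-5p is 28 nt long, so no read of these lengths from within it differs between the loci, and that around miR-181b-5p is 26 nt long. All counted miR-181b-5p reads began between 1 nt upstream and 3 nt downstream of the annotated start. They ended 1 to 4 nt upstream of the annotated end, so all lie within the stretch shared by MIR181B1 and MIR181B2. How they passed as unambiguous alignments was not tested.
MIR181A1 and MIR181A2: gAACAUUCAACGCUGUCGGUGAGUuugg
MIR181B1 and MIR181B2: ucAACAUUCAUUGCUGUCGGUGGGUu
Capitals mark the mature strand, 1 and 2 nt upstream and 4 and 1 nt downstream of it being shared as well. Of the RefSeq names with 2 or more loci, 49 of 139 (35.3%) were among those analysed, against 1411 of 2231 (63.2%) of the names with 1 locus. A comparison of the total output of miR-181a and miR-181b with that of miR-181c and miR-181d was therefore not made. The levels and guide shares of miR-181b-5p given above compare counts only.

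The 3p strands of miR-181a could be compared between the loci, since each is made at 1 of them. With the empty vector 4818 reads came from MIR181A1 and 2901 from MIR181A2, and the counts were 4320 and 2634 with the wild-type plasmids, 4227 and 2481 with mutant 1 and 5424 and 3079 with mutant 2. The ratio was 1.66 (interval 1.59 to 1.74), 1.64 (1.56 to 1.72), 1.70 (1.62 to 1.79) and 1.76 (1.69 to 1.84). Chromosome 1 thus gave more of these strands than chromosome 9 in every library, and all 4 intervals overlapped. The 3p strands of the miR-181b hairpins in the same clusters were ordered alike. The counts of miR-181b-3p (MIR181B1) were 100, 69, 85 and 117, and those of miR-181b-2-3p (MIR181B2) were 12, 13, 8 and 23, which is a ratio of 5.09 (3.25 to 7.95) in the mutant 2 library, the lowest of the 4, and of 10.6 (5.15 to 21.9) in the mutant 1 library, the highest.

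On chromosomes 1 and 9, the 3p strands of neighbouring hairpins differed more than those of the paired loci. For each read of miR-181b-3p there were 48.2 reads (39.5 to 58.7) of miR-181a-3p with the empty vector and between 46.4 and 62.6 over the 4 libraries. The corresponding ratio on chromosome 9, of miR-181a-2-3p to miR-181b-2-3p, was 242 (137 to 426) with the empty vector and between 134 and 310 over the libraries. On chromosome 19, miR-181c-5p had 2.87 times (2.74 to 3.01) the reads of miR-181d-5p with the empty vector, and 2.65 times (2.53 to 2.79), 2.76 times (2.63 to 2.90) and 2.90 times (2.77 to 3.03) in the wild-type, mutant 1 and mutant 2 libraries.

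The arm ratio of a single locus was open to measurement for miR-181c and miR-181d, and the 2 hairpins, 66 bp apart, differed in it. The guide miR-181c-5p had 6928, 5866, 5876 and 7425 reads and miR-181c-3p had 2169, 1836, 1621 and 2130, in the order empty vector, wild-type, mutant 1 and mutant 2. The 5p/3p ratio was 3.19 (3.04 to 3.35), 3.19 (3.03 to 3.37), 3.62 (3.43 to 3.83) and 3.49 (3.32 to 3.66). For MIR181D, miR-181d-5p had 2413, 2210, 2129 and 2561 reads, whereas miR-181d-3p had 0, 0, 3 and 1. Taking 3 reads, the limit that a count of 0 allows, miR-181d-5p was at least 804-fold higher than its 3p strand with the empty vector and at least 737-fold higher in the wild-type library. The miR-181c ratio rests on which isoforms are counted: with the most frequent isoform of each arm it was 1.35 with the empty vector, since miR-181c-5p is spread over more 3p ends.

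The 5p start of a strand sets its seed, and 5 of the 6 members began at the annotated base. The share of reads at the annotated 5p start was at least 99.6% for miR-181c-5p, 99.1% for miR-181d-5p, 98.2% for miR-181a-2-3p and 97.0% for miR-181a-3p in each library. It was 92.4 to 94.1% for miR-181b-5p, where 3.77 to 4.72% of the reads began 1 nt downstream and 1.30 to 3.0% 1 nt upstream. Among 143 untransfected miRNAs that have 1 locus and averaged 1000 reads or more, the median share at the annotated start was 98.4% with the empty vector.

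In contrast, miR-181c-3p began 1 nt downstream of the annotated start. Of its reads 98.6% (98.0 to 99.0%) did so with the empty vector, 99.3% (98.8 to 99.6%) with the wild-type plasmids, 98.6% (98.0 to 99.1%) with mutant 1 and 98.6% (98.1 to 99.1%) with mutant 2. Reads at the annotated start were 23, 12, 17 and 26. Of the 143 miRNAs above, 11 (7.69%) had their most frequent start away from the annotated one, and 5 of these had it 1 nt downstream. The start used in HCT116 gives the isoform shown among the 3p sequences, with CCAUCGA in place of the annotated seed ACCAUCG. With that start counted, miR-181a-3p and miR-181c-3p share a seed, and there were 2.22 reads (2.11 to 2.34) of the former per read of the latter with the empty vector and 2.61 (2.46 to 2.76) in the mutant 1 library. Among RefSeq miRNAs, miR-181a-3p alone is annotated with this seed.

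**Figure D2:**
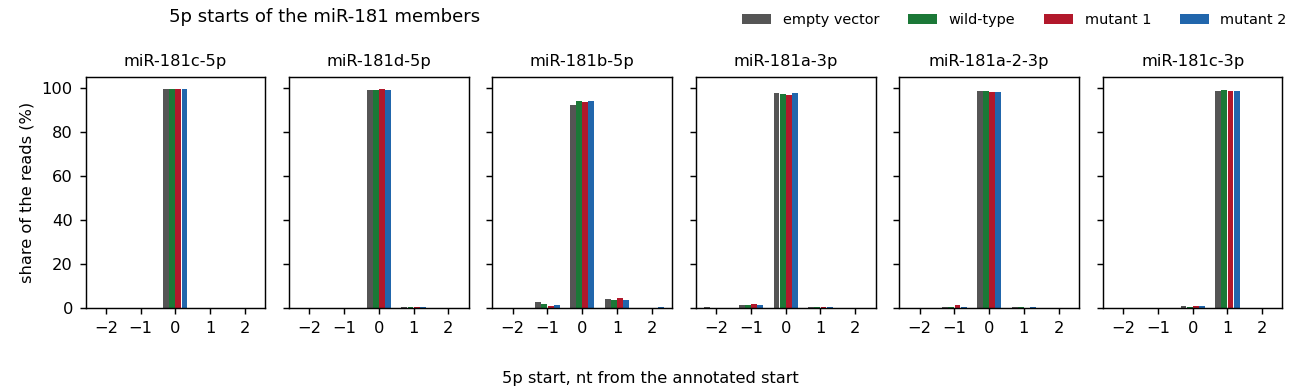
Share of the reads (%) of each member by 5p start, in nt from the annotated start, with 1 bar per library. The starts of 5 members lie at 0, with at least 92.4% of the reads, and that of miR-181c-3p lies 1 nt downstream, with at least 98.6%.

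The 3p ends were spread more widely in the guides of miR-181c and miR-181d than in the 3p strands of miR-181a. For miR-181a-3p 91.8, 91.9, 93.7 and 92.6% of the reads ended at the annotated base, and for miR-181a-2-3p 87.2, 86.4, 87.3 and 87.3%. For miR-181c-5p 34.6% of the reads ended 1 nt upstream of the annotated end with the empty vector, 34.3% ended at it and 21.3% ended 1 nt downstream. For miR-181d-5p 55.8% of the reads ended 1 nt upstream and 32.4% at the annotated end. Reads of miR-181c-3p ended mainly 1 nt upstream (82.6%), which with the later start makes an isoform of 20 nt. The alignment allowed mismatches at the 3p end, so a base added after cleavage can count as part of such an end.

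The same isoform was the most frequent in all 4 libraries for each of the 6 members. A small difference was seen in the 3p ends: the mean 3p end lay further upstream in the mutant 1 than in the empty vector library for all 6. The difference was -0.101 nt for miR-181c-5p (from -0.290 to -0.391 nt) and between -0.0380 and -0.00764 nt for the others. Reads of miR-181c-5p that end 2 nt upstream were 8.30% (7.67 to 8.97%) with the empty vector, 9.24% (8.53 to 10.01%) with the wild-type plasmids, 12.2% (11.3 to 13.0%) with mutant 1 and 10.7% (10.1 to 11.5%) with mutant 2. A lower mean 3p end in mutant 1 was found for 89.5% of the 143 untransfected miRNAs with 1 locus, with a median difference of -0.06 nt, so most miRNAs of that library shared its direction.

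Scaled to untransfected miRNA reads, the members differed by at most 1.40 times between libraries. The highest level over the 4 libraries was 1.19 times the lowest for miR-181d-5p and miR-181a-3p, 1.23 times for miR-181a-2-3p, 1.24 times for miR-181c-5p and miR-181b-5p, and 1.40 times for miR-181c-3p. A miRNA was counted as differing when its ratio passed 1.5-fold in either direction, a description of 2 libraries and not a test. On this scale none of the 6 members did so in any of the 5 comparisons. Of 475 untransfected miRNAs that averaged 50 reads or more, 10.9% did so between the wild-type and empty vector libraries, 21.3% between mutant 1 and empty vector, 9.47% between mutant 2 and empty vector, 15.8% between mutant 1 and wild-type and 2.95% between mutant 2 and wild-type. With 6 members, a count of 0 is not far from these shares. The other scalings move all miRNAs by 1 factor per comparison. Scaled to miR-16-5p, all 6 members passed 1.5-fold in each comparison with the empty vector, as did 85.3% of the 475 with the wild-type plasmids, 87.2% with mutant 1 and 95.8% with mutant 2. Scaled to all miRNA reads, 5 members passed it in mutant 1 against empty vector, as did 38.7% of the 475.

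Against the empty vector, the library that all 3 comparisons share, the summed level of the 6 members was 0.971 (0.952 to 0.991) times as high with the wild-type plasmids, 0.844 (0.828 to 0.861) times with mutant 1 and 0.968 (0.950 to 0.987) times with mutant 2. Scaled to miR-16-5p the sums were 0.474, 0.407 and 0.395. The untransfected miRNAs fell with them, with median log2 ratios of -0.95, -1.07 and -1.23. The sums were below 1 under every scaling tried, but miR-16-5p reads and all miRNA reads include reads from the plasmids. Scaling to these lowers the ratios of all endogenous miRNAs to the empty vector. Relative to the median untransfected miRNA, the family lay at -0.13, -0.23 and -0.11 on the log2 scale under every scaling. In mutant 1, 5 of 6 members had a ratio below 1, from 0.713 (0.668 to 0.760) for miR-181c-3p to 0.842 (0.794 to 0.892) for miR-181d-5p, and these 5 stayed below 1 under every scaling. The median log2 ratio of the 6 was -0.28, against -0.02 over the untransfected miRNAs, of which 90% lay between ratios of 0.573 and 1.64. All members thus lay inside the spread of the other endogenous miRNAs.

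The member furthest above 1 in all 3 comparisons was miR-181b-5p, the only other ratio above 1 being 1.00 for miR-181d-5p with the wild-type plasmids. Its ratio to the empty vector was 1.11 (1.04 to 1.19) with the wild-type plasmids, 1.24 (1.16 to 1.32) with mutant 1 and 1.20 (1.13 to 1.28) with mutant 2, but scaled to all miRNA reads it was 0.854 with the wild-type plasmids and 0.950 with mutant 1, and scaled to miR-16-5p it was below 1 in all 3. Against the other members in the same library, which needs no scaling, it was higher in mutant 1 than with the empty vector, as its share of guide reads showed. The 18 untransfected miRNAs with 2 or more loci had a median log2 ratio to the empty vector of 0.09 with the wild-type plasmids, 0.18 with mutant 1 and 0.15 with mutant 2, and the medians of those with 1 locus (406 or 407) were 0.09, -0.04 and 0.05. Names for which no number of loci was found were in neither set. What part the counting of reads with several loci has in the miR-181b-5p values was not tested.

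Between the mutants and the wild-type, the summed level was 0.869 (0.852 to 0.887) times as high in mutant 1, or 1.03 times under TMM scaling, and 0.997 (0.978 to 1.02) times in mutant 2. TMM moved the median log2 ratio of the untransfected miRNAs from -0.15 to 0.09 for mutant 1, and relative to that median the family lay at -0.05 on the log2 scale under either. The member furthest from 1 was again miR-181c-3p in mutant 1, with 0.771 (0.721 to 0.824), below 1 under all 5 scalings. For mutant 2 against the wild-type the members lay between 0.937 and 1.08, and their direction turned with the scaling.

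The loci nearest to the family lie about 38 kb from MIR181C and MIR181D on chromosome 19: MIR23A, MIR27A and MIR24-2, on the opposite strand. With the empty vector miR-27a-3p had 6001 RPM and miR-23a-3p had 1864, and over the 4 libraries they had 5980 to 6544 and 1864 to 2642. In mutant 1 miR-23a-3p was at 2642 RPM against 1864 with the empty vector, and miR-27a-3p at 5980 against 6001. The guide miR-24-3p, made at 2 loci, had 17 to 37 reads, whereas miR-24-2-5p from MIR24-2 alone had 1830 to 2538. Since only unambiguous alignments were kept, the count of miR-24-3p was not taken as its level.

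The miRNAs whose levels varied most like those of miR-181c-5p were found by the distance between log2 ratios to the empty vector in the other 3 libraries, over 170 untransfected miRNAs that averaged 1000 reads or more. The nearest was miR-151a-3p (distance 0.06), followed by miR-191-5p (0.08), miR-99b-5p (0.09), let-7e-5p (0.09) and miR-330-5p (0.09). Of the members, miR-181a-2-3p was the seventh nearest at 0.10, miR-181a-3p came at place 11, miR-181d-5p at 13 and miR-181c-3p at 27, and miR-181b-5p, at a distance of 0.75, came at place 132. With 3 ratios that share the empty vector library, such a likeness is a description of these libraries.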

How the data were processed

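Total RNA of the 4 transfected HCT116 cultures was sequenced with the TruSeq small RNA kit. The authors trimmed adapters with cutadapt, kept reads of 18 to 26 nt of sufficient quality, aligned them to hg38 with Bowtie2, kept unambiguous alignments with mismatches only at the 3p end and assigned them to miRBase loci. The deposited values are raw read counts per end isoform (12689 in all), with the 5p and 3p ends as offsets of -5 to 5 nt. A blank was read as 0. Isoform counts were added per strand and scaled to untransfected miRNA reads, which leave out both arms of every pri-miRNA in the plasmid sequences.

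Shares have Wilson intervals, and ratios have normal intervals on the log scale, both at 95%. A count of 0 allows up to 3 reads. Loci and host genes are from GENCODE and RefSeq on GRCh38. The genes named are the members, the other strands of their loci, miRNAs with the guide seed, miRNAs within 50 kb, miR-16-5p, the 5 with the most similar ratios, abundance neighbours and fixed cell type markers. The members, lists and alternatives were chosen with earlier results of these data known. Alternatives were other scalings (edgeR 4.0.16 and DESeq2 1.42.0 factors, used for scaling alone, in R 4.3.3), isoform choices, read minimums and folds. Further tools were pandas 2.3.3, numpy 2.4.6 and matplotlib 3.10.9 (Python 3.11.15). The procedure was tested on simulated data. The in vitro cleavage assays were not analysed here.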

Additional observations from a re-analysis of the deposited data

How the results depend on the processing

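The scaling of the libraries moved the family most. Relative to untransfected miRNA reads, the summed level of the members over the empty vector was 0.971 (wild-type), 0.844 (mutant 1) and 0.968 (mutant 2). It was 0.744, 0.649 and 0.930 scaled to all miRNA reads, 0.474, 0.407 and 0.395 scaled to miR-16-5p (the authors' factor, also encoded by a plasmid), 0.896, 0.919 and 0.939 with TMM, and 0.911, 0.905 and 0.945 with DESeq2's median of ratios. Over the wild-type, mutant 1 was 0.869 and became 1.03 with TMM and 0.994 with DESeq2; mutant 2 was 0.997 and became 1.25 with all miRNA reads, 0.834 with miR-16-5p, 1.05 with TMM and 1.04 with DESeq2. A scaling multiplies every miRNA by the same factor in a comparison: untransfected miRNAs had median log2 ratios to the empty vector of -0.95, -1.07 and -1.23 under miR-16-5p scaling, and the log2 ratio of the family minus that median was -0.13, -0.23 and -0.11 under all 5 scalings. Members past 1.5-fold over the empty vector were 0 in each comparison, but 6 in all 3 with miR-16-5p, where 85.3, 87.2 and 95.8% of the untransfected miRNAs passed it too, and 5 in mutant 1 with all miRNA reads, where 38.7% did. With reads at the annotated 5p start alone, 1 member, miR-181c-3p with 12 to 26 such reads, passed it for wild-type over empty vector and for mutant 2 over wild-type. Without miR-181b-5p, left out after the data were seen, the sum was 0.810 (mutant 1) and 0.948 (mutant 2) over the empty vector and 0.845 for mutant 1 over wild-type.

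The percentage of untransfected miRNAs past the fold, in the order wild-type, mutant 1 and mutant 2 over empty vector, then mutant 1 and mutant 2 over wild-type, was 21.6, 31.1, 19.97, 27.7 and 17.5% with a minimum of 10 reads, 7.10, 19.4, 5.81, 11.6 and 0.323% with 200 reads, and 1.89, 4.0, 1.68, 2.32 and 0.842% at 2-fold.

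Within libraries, in the order empty vector, wild-type, mutant 1 and mutant 2, the 5p/3p ratio of miR-181c was 1.35, 1.34, 1.47 and 1.44 with the most frequent isoform of each arm, and 301, 487, 344 and 284 with reads at the annotated starts alone, where few miR-181c-3p reads lie. The ratio of miR-181a-3p to miR-181a-2-3p with the most frequent isoforms was 1.73, 1.81 and 1.85 in the wild-type, mutant 1 and mutant 2 libraries. Without the miR-181b-5p ends 2 nt short, the share of miR-181c-5p in the guide reads was 68.0, 65.7, 64.5 and 66.7%, and that of miR-181b-5p was 8.27, 9.60, 12.1 and 10.3% instead of 15.1, 17.4, 21.2 and 18.5%. The share of miR-181c-3p reads 1 nt downstream was 100, 100, 100 and 99.2% over isoforms with at least 10 reads. Of 220 further values of single members under an alternative, 104 moved by less than their counting interval and 116 by more. Apart from the scalings, 3 ratios turned to the other side of 1 and 2 newly passed 1.5-fold, all with reads at the annotated 5p start alone. One that turned was miR-181c-3p in mutant 1 over wild-type, from 0.771 to 1.24 over its few reads there.

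No paired analysis was possible because each condition has 1 library and the labels number no replicates, and for the same reason none was left out in turn. With 1621 to 7425 reads per member, counting error was a few percent, and differences between single transfections were not measured.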
